A study of Homo sapiens with 4 samples.

Results

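The loci of GATA2 and GATA3, the genes of a pair of related zinc-finger transcription factors, were examined in the ATAC-seq peaks of SK-N-BE(2)C cells with and without a targeted SNHG1 locus. Peaks were taken when they overlapped the 3 kb on either side of any annotated transcription start site (TSS) of either gene, or lay within 100 kb of the gene. This gave 23 of 47610 control peaks and 21 of 42682 sgSNHG1 peaks, or 44 of 90292 in all. GATA2 (ENSG00000179348.13) is encoded on the minus strand at chr3:128479427-128493201 and has 13 annotated transcripts with 10 distinct TSS (GRCh38, GENCODE version 44). GATA3 (ENSG00000107485.18) is encoded on the plus strand at chr10:8045378-8075198 and has 5 annotated transcripts, each with its own TSS.

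SK-N-BE(2)C is an established human neuroblastoma line in which MYCN is amplified. In ATAC-seq, the Tn5 transposase inserts adapters into open chromatin, so that accessible regions collect many fragments and appear as peaks. The control group had a wildtype genotype and a non-targeting guide RNA, whereas the sgSNHG1 group carried guide RNAs against SNHG1 and is labelled as a knockout. SNHG1 is the host gene of several small nucleolar RNAs and also makes a long non-coding RNA. The paper states that the knockout was not complete and that SNHG1 expression was reduced. Cas9 and guide RNAs were delivered to the cells, which then passed through puromycin selection and growth from single sorted cells. The study's control was a single clone and the labels do not name the SNHG1 clones, so that differences between clones and between genotypes cannot be told apart. The 2 replicates of a group were merged by the authors ahead of peak calling. Every value below therefore comes from 1 pooled list per group, has no replicate spread, and describes those lists without a test.

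GATA factors bind DNA at a short motif with GATA at its centre through their zinc fingers and act with cofactors of the FOG (ZFPM) and LMO-LDB families. GATA2 is best known for maintaining haematopoietic progenitors and endothelial cells, and GATA3 for T lymphocytes and breast epithelium. Both are also expressed in developing sympathetic neurons, the lineage from which neuroblastoma arises, where GATA3 takes part in noradrenergic differentiation. Both genes use more than 1 promoter and are controlled by enhancers far from their starts. GATA3-AS1, a non-coding RNA gene, starts close to the inner GATA3 promoter and runs the other way.

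Peak numbers differed between the lists in opposite directions at the 2 loci. Around GATA3 there were 6 control and 9 sgSNHG1 peaks, and around GATA2 there were 17 control and 12 sgSNHG1 peaks. All 6 control peaks of GATA3 overlapped an sgSNHG1 peak and 3 sgSNHG1 peaks stood alone, whereas 7 of the 17 control peaks of GATA2 had no sgSNHG1 peak. Genome-wide, 33.3% of control peaks and 21.8% of sgSNHG1 peaks had no partner in the other list, against which these counts are to be read. Peaks near the annotated TSS numbered 4 in control and 6 in sgSNHG1 at GATA3, and 2 in control and 3 in sgSNHG1 at GATA2. With a −log10 q of at least 5 these numbers were 4 and 5 at GATA3 and 2 and 2 at GATA2, so that the difference at GATA2 was lost. No paired peak differed between the lists by more than 2 counting errors.

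Sequences within 60 bp of the summit are given for the peaks on which these statements rest, read from the plus strand of GRCh38 and cut at the peak's edge. Capitals mark the GATA motif, searched on both strands as either AGATAA or the form AGATAG, and as either TGATAA or the form TGATAG. A motif on the minus strand reads as its reverse complement, for example as TTATCT. The first group holds the GATA3 sites.
GATA3 outer start, peak in sgSNHG1 alone, chr10:8045209-8045296: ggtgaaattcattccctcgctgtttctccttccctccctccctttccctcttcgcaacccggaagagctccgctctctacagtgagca
GATA3 intron at 6.7 kb, higher in sgSNHG1, chr10:8051969-8052089: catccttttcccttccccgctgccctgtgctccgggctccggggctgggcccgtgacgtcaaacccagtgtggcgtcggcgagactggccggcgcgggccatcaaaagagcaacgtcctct
GATA3 inner start, lower in sgSNHG1 (control summit), chr10:8053405-8053525: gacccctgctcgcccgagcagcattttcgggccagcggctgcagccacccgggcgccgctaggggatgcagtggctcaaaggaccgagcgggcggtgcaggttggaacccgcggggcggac
GATA3 intron at 14.8 kb, peak in sgSNHG1 alone, chr10:8060136-8060256: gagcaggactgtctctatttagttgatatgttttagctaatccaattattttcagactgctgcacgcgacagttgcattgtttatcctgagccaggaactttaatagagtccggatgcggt
GATA3 distal site at 71.8 kb, strongest in both lists (control summit), chr10:8117166-8117286: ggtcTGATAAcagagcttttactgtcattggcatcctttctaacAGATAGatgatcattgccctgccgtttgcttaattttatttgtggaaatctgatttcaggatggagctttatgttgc

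The second group holds GATA2 sites. These are the promoter pair that was lowest in sgSNHG1 relative to control, the innermost start and the site just upstream of the gene. The last is the distal peak with the highest −log10 q among those found in control alone. The paired EEFSEC site described below is not among them. The summit window of the upstream site held 2 GATA motifs in both lists.
GATA2 inner start, lower in sgSNHG1 (control summit), chr3:128487961-128488081: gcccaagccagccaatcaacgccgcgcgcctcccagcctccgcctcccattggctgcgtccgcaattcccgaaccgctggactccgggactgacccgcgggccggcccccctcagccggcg
GATA2 innermost start, peak in sgSNHG1 alone, chr3:128481700-128481786: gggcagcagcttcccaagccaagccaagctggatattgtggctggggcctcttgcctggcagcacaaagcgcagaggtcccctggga
GATA2 upstream site at 4.6 kb (control summit), chr3:128497776-128497896: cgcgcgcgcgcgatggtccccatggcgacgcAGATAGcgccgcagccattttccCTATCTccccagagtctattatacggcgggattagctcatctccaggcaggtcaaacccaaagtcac
GATA2 distal site in EEFSEC, peak in control alone, chr3:128395732-128395852: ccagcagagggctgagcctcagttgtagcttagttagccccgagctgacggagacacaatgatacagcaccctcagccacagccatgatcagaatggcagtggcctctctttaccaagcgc

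**Figure D1:**
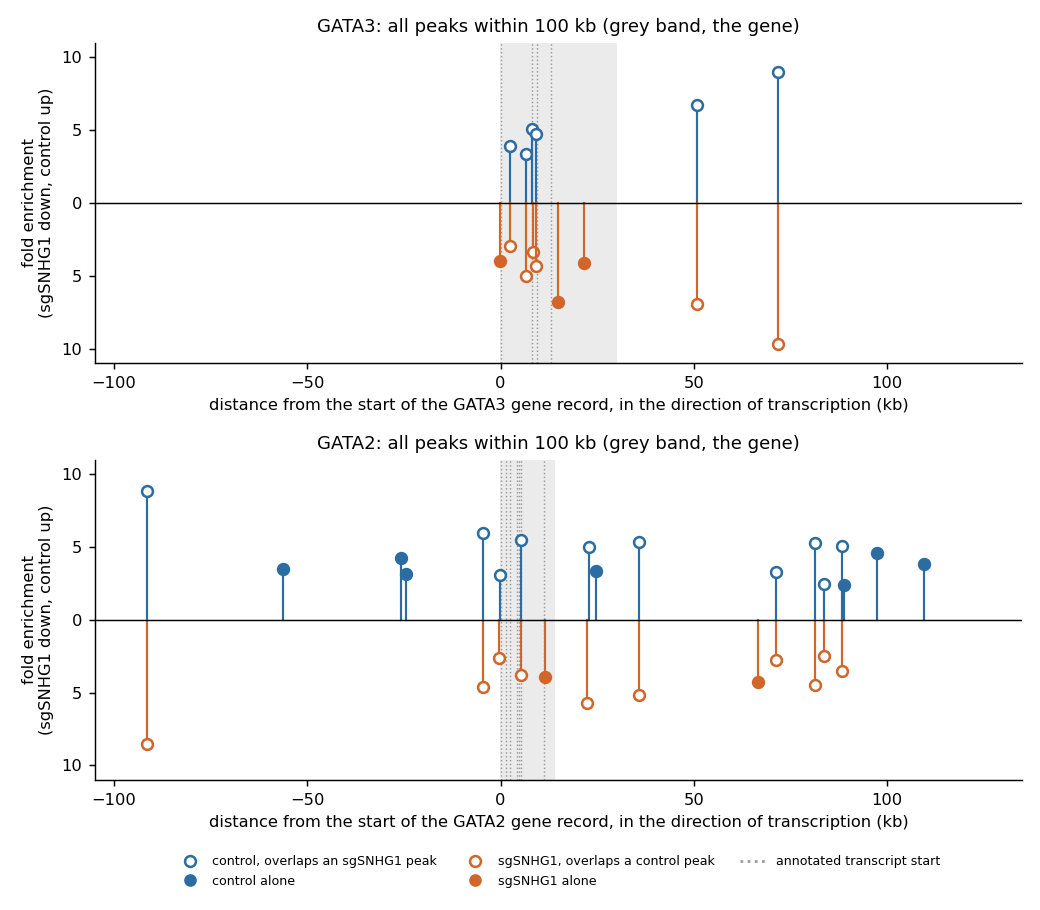
Fold enrichment of each peak within 100 kb of GATA3 (top) and GATA2 (bottom) against its distance from the start of the gene record in kb, with control peaks upward and sgSNHG1 peaks downward. Filled points are peaks without an overlapping peak in the other list: 3 sgSNHG1 peaks at GATA3, and 7 control and 2 sgSNHG1 peaks at GATA2.

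At GATA3, the annotated starts fall into an outer start at 8045378 (transcript GATA3-205), inner starts at 8053604 (GATA3-204) and at 8054688 to 8054810 (GATA3-201 and GATA3-202), and a start further in at 8058399 (GATA3-203). The outer start had a peak next to it only in the sgSNHG1 list. This peak spanned chr10:8045192-8045296, with its summit 109 bp upstream of the start, a fold enrichment over local background of 4.01, a pileup of 19 fragments at the summit and a −log10 q of 5.29. The nearest control peak of this start was 2287 bp away. A control peak at that position would have needed a pileup of about 16, so that a control signal of 15 or fewer fragments would have gone unlisted.

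The peak with the highest −log10 q among those found in a single list at either gene was also at GATA3. It lay in an intron at chr10:8059956-8060311, 14.8 kb into the gene, with a fold enrichment of 6.83, 31 fragments at the summit and a −log10 q of 15.5. Its summit was 1797 bp from the GATA3-203 start and 261 bp from a start that RefSeq places at 8060457. No control peak lay within 3 kb of the GATA3-203 start. The control list would have listed a peak there at a fold enrichment of about 2.79 (pileup 15), which puts the sgSNHG1 value 1.29 log2 units above that limit (counting SE 0.45).

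The strongest control peak near a GATA3 start was at the GATA3-204 start, which it covered, at chr10:8053362-8053715. Its fold enrichment was 5.05 (pileup 48), and that of the overlapping sgSNHG1 peak at chr10:8053477-8053854 was 3.36 (pileup 25). The log2 ratio of sgSNHG1 over control was -0.58 (counting SE 0.36), the lowest of all 16 member pairs. The summits were 352 bp apart, with the control summit in an exon of GATA3-AS1 and the sgSNHG1 summit on the GATA3 side of the start. Summits more than 300 bp apart were found in 2.52% of all pairs and in 2 of the 16 member pairs. The ratio therefore compares a pair of summits rather than a single point.

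The neighbouring site at 6.7 kb, in introns of GATA3, GATA3-AS1 and ENSG00000232638, had the opposite difference. Fold enrichment was 3.36 for the control peak (chr10:8051988-8052110, pileup 36) and 5.00 for the sgSNHG1 peak (chr10:8051887-8052124, pileup 40). The log2 ratio was 0.57 (counting SE 0.33), and the log2 ratio of pileups scaled to the lowest background of each list was 0.51. It was the only 1 of the 16 pairs with a log2 ratio of 0.5 or more, and 5.37% of all pairs reached this value. The peak was also wider in the sgSNHG1 list, with a log2 ratio of widths of 0.95.

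The peak next to the GATA3-202 start differed little. Its fold enrichment was 4.77 in control (chr10:8054339-8054686, pileup 44) and 4.36 in sgSNHG1 (chr10:8054481-8054675, pileup 32), with a log2 ratio of -0.13 (counting SE 0.34). The peak 2.3 kb inside the outer start had values of 3.90 in control (chr10:8047665-8047930, pileup 33) and 2.92 in sgSNHG1 (chr10:8047740-8047850, pileup 19), a log2 ratio of -0.42 (counting SE 0.42). The 4 GATA3 promoter pairs thus held 3 lower and 1 higher values, with a median of -0.27, against -0.07 over all 16496 promoter pairs.

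**Figure D2:**
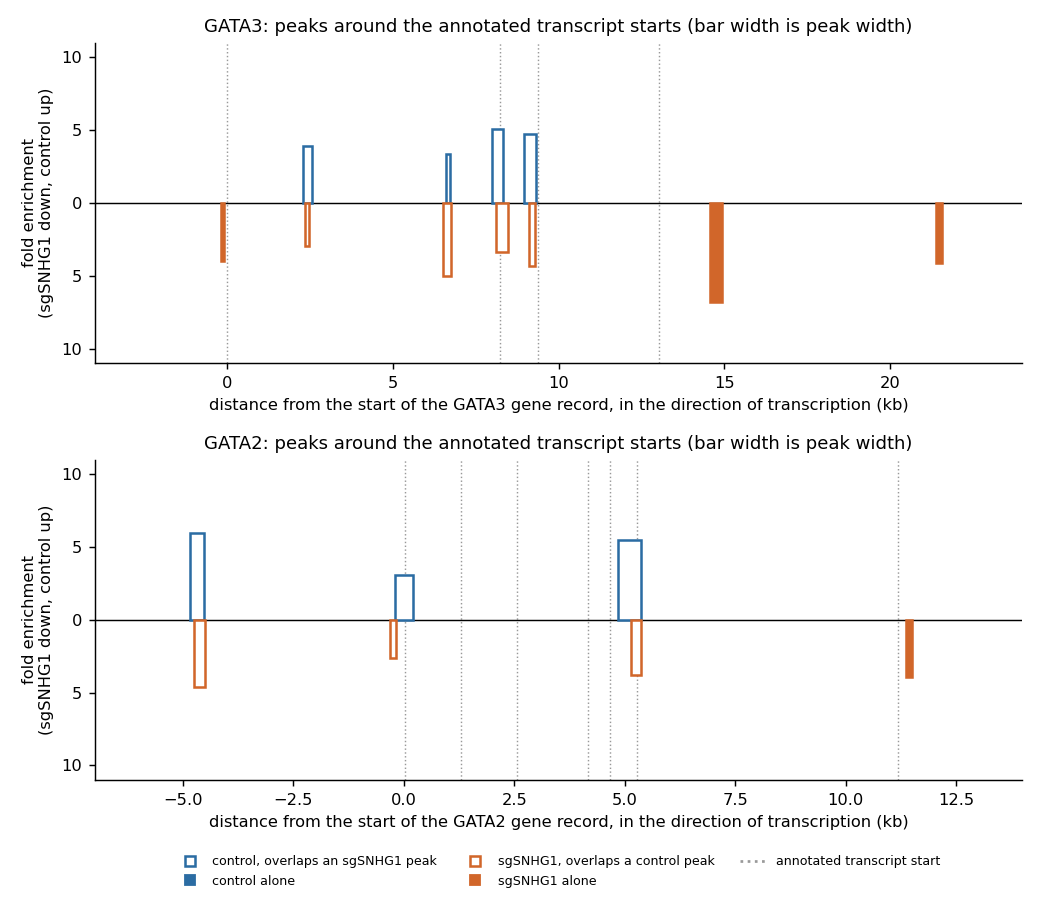
Peaks around the annotated transcript starts (dotted lines) of GATA3 (top) and GATA2 (bottom), with position in kb from the start of the gene record, bar width as peak width and bar height as fold enrichment (control upward, sgSNHG1 downward). Filled bars have no overlapping peak in the other list, which at these starts holds for 2 sgSNHG1 promoter peaks of GATA3 and 1 of GATA2, beside the distal GATA3 intron peak at 21.5 kb.

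At GATA2, the start used by GATA2-201 and 4 further transcripts (128493173 to 128493201) is the outermost, and the others lie within the gene. Fold enrichment at the outermost start was 3.06 in control (chr3:128493006-128493395, pileup 34) and 2.59 in sgSNHG1 (chr3:128493388-128493506, pileup 23), with a log2 ratio of -0.24 (counting SE 0.39). These peaks shared 8 bp, and the control peak covered the start whereas the sgSNHG1 peak began 187 bp upstream of it. The strongest promoter peak of the gene in control covered the inner start of GATA2-202, at 128487916. The start of GATA2-203, at 128488530, was covered in neither list, with gaps of 181 bp in control and 464 bp in sgSNHG1. Fold enrichment at the GATA2-202 start was 5.51 in control (chr3:128487825-128488349, pileup 50) and 3.79 in sgSNHG1 (chr3:128487826-128488066, pileup 31). The log2 ratio was -0.54 (counting SE 0.33) and -0.33 with scaled pileups.

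The innermost GATA2 starts, at 128481944 to 128482078 (GATA2-204 and GATA2-213), had a peak within 3 kb only in the sgSNHG1 list. It spanned chr3:128481700-128481834 in an intron, with a fold enrichment of 3.96, a pileup of 23 and a −log10 q of 6.20. The estimated limit of the control list at this site was a fold enrichment of 2.54 (pileup 18), 0.64 log2 units below the sgSNHG1 value (counting SE 0.45). The peak at this start was within 2 counting errors of what the control list could have missed.

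When the starts of all genes were considered, 3 of 9 sgSNHG1 promoter peaks of the 2 loci had no control peak, against 12.5% of sgSNHG1 promoter peaks overall. In the other direction, 1 of 7 control promoter peaks had no sgSNHG1 peak, against 24.2% overall. That control peak lay 1585 bp from the start of DNAJB8, a testis-enriched chaperone gene downstream of GATA2. None of the 6 control peaks at GATA2 or GATA3 starts was without an sgSNHG1 peak (95% Wilson interval 0 to 39.0%, counting error only).

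The number of promoter peaks was high for GATA3 in both lists. Of 19962 protein-coding genes, 2.35% had 4 or more control promoter peaks and 0.301% had 6 or more sgSNHG1 promoter peaks. At GATA2 the counts of 2 and 3 were reached by 22.6% and 6.35% of genes. These counts grow with the number of annotated starts, since each start adds its own window.

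The strongest promoter peak of each gene gave a log2 ratio of 0.44 at GATA3 (counting SE 0.33) and of -0.47 at GATA2 (counting SE 0.36). Neither reached 0.5 in size, which 2.01% of 12710 genes did upward and 7.32% downward. Both ratios compare different sites, namely the GATA3-204 start in control with the intron peak at 14.8 kb in sgSNHG1, and the GATA2-202 start in control with the innermost start in sgSNHG1. The GATA3 ratio also depended on the scale, as it was -0.27 with scaled pileups, and on the window, as it was -0.21 with 1 kb on either side of a start.

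The distal peaks of GATA3 numbered 2 in control and 3 in sgSNHG1. A site 71.8 kb downstream of the start, in no annotated gene, had the highest fold enrichment of the locus with 9.01 in control (chr10:8116686-8117433, pileup 44) and 9.69 in sgSNHG1 (chr10:8116815-8117397, pileup 35). Its log2 ratio was 0.10 (counting SE 0.33). The site at 50.8 kb had 6.70 in control (chr10:8095895-8096252, pileup 25) and 6.96 in sgSNHG1 (chr10:8096004-8096194, pileup 22), a log2 ratio of 0.06 (counting SE 0.42). A difference at these sites was not detectable at this depth. The third distal peak was found in sgSNHG1 alone, in a GATA3 intron at chr10:8066767-8066953, at a fold enrichment of 4.12 (pileup 15), against an estimated control limit of 13 fragments.

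Distal sites of GATA2 were more numerous, with 15 control and 9 sgSNHG1 peaks. The strongest lay 91.4 kb upstream in no annotated gene and differed little, at 8.84 in control (chr3:128584320-128584742, pileup 42) and 8.54 in sgSNHG1 (chr3:128584335-128584818, pileup 38) and a log2 ratio of -0.05 (counting SE 0.32). The site 4.6 kb upstream, in an intron of GATA2-AS1, had 5.98 in control (chr3:128497731-128498048, pileup 56) and 4.59 in sgSNHG1 (chr3:128497708-128497950, pileup 34), a log2 ratio of -0.38 (counting SE 0.31). The sequence at its summit, given above, holds an AGATAG and a CTATCT.

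The distal GATA2 site with the lowest ratio was in an intron of EEFSEC, the gene of the selenocysteine-specific elongation factor. Fold enrichment there was 5.06 in control (chr3:128404712-128404982, pileup 51) and 3.53 in sgSNHG1 (chr3:128404797-128404979, pileup 28), a log2 ratio of -0.52 (counting SE 0.34). With the inner GATA2 start and the GATA3-204 start, it made 3 of 16 pairs with a log2 ratio of -0.5 or less, against 9.05% of all pairs. Higher values at GATA2 were found at 2 of 10 pairs. One was the site 22.8 kb from the start (chr3:128470267-128470936 in control), at 4.96 in control (pileup 50) and 5.70 in sgSNHG1 (pileup 51), and a log2 ratio of 0.20 (counting SE 0.29). Its summits were 308 bp apart. The other was at chr3:128409473-128409632, with 2.43 in control, 2.47 in sgSNHG1 and a log2 ratio of 0.02.

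The site 35.9 kb from the start (chr3:128457210-128457429 in sgSNHG1) was the third strongest of the sgSNHG1 list at GATA2, with a fold enrichment of 5.14 against 5.32 in control and a log2 ratio of -0.05 (counting SE 0.33). Scaled pileups placed this pair at 0.28, and 3 of the 8 distal GATA2 pairs, including the strongest, went from below 0 to above 0 on that scale, whereas the site at 83.7 kb went the other way.

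Of the 7 control peaks of GATA2 without an sgSNHG1 peak, the one with the highest −log10 q, 13.1, also lay within an intron of EEFSEC, at chr3:128395603-128396120. Its fold enrichment was 4.59 (pileup 40), 0.80 log2 units above the estimated sgSNHG1 limit of 2.65 (counting SE 0.41). The next was at chr3:128468378-128468784 near DNAJB8, with a fold enrichment of 3.31, a pileup of 33 and a −log10 q of 6.90. It was 0.38 log2 units above the estimated sgSNHG1 limit (counting SE 0.41). The other 5 had pileups of 14 to 24. At 2 of these 5 the control value was below the estimated sgSNHG1 limit, so that an equal signal would not have been listed. None of these 5 stood above that limit by more than its counting SE. None of the 7 was more than 2 counting errors above what the sgSNHG1 list could have missed. Of the sgSNHG1 peaks, 1 distal peak stood alone at chr3:128426540-128426772, in no annotated gene, with a fold enrichment of 4.30, a pileup of 28 and a −log10 q of 8.40. It was 0.78 log2 units above the estimated control limit of 2.51 (counting SE 0.42). This peak too was thus within 2 counting errors of what the control list could have missed.

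With the starts of all genes set aside, 6 of 16 distal control peaks of both loci had no sgSNHG1 peak and 2 of 12 distal sgSNHG1 peaks had no control peak. The shares over all distal peaks were 41.0% and 30.2%. The control share was thus near that of the whole list. With promoter and distal peaks together, the 7 control-only peaks made 41.2% of the control peaks of GATA2 (95% Wilson interval 21.6 to 64.0%), and the 3 sgSNHG1-only peaks made 33.3% of the sgSNHG1 peaks of GATA3 (12.1 to 64.6%). Both intervals include the shares over the whole lists, 33.3% and 21.8%.

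**Figure D3:**
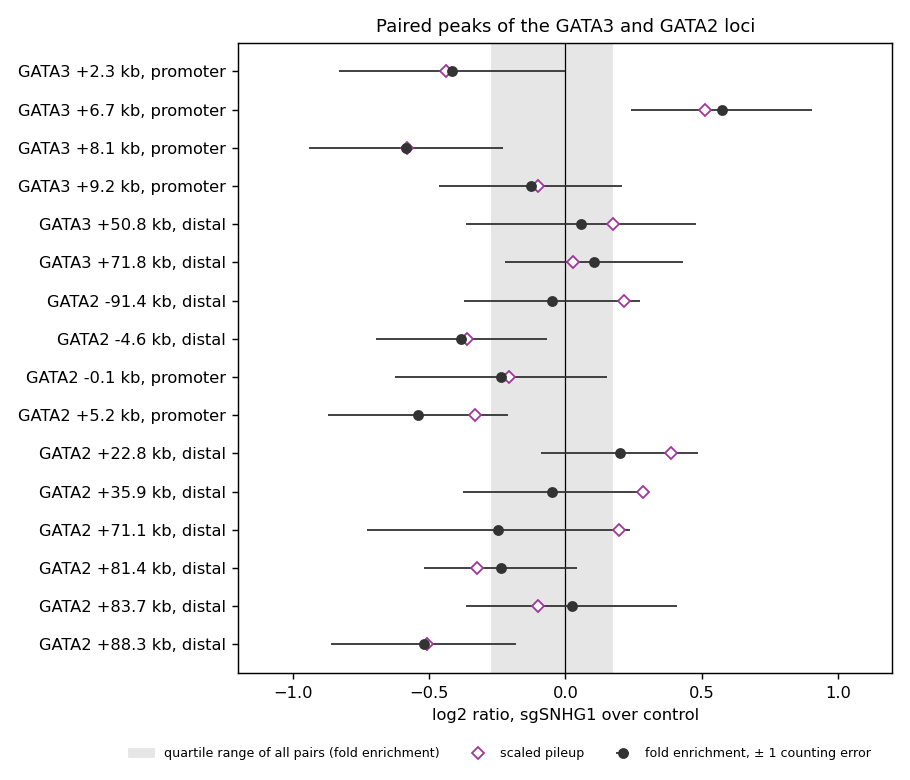
Log2 ratio of sgSNHG1 over control for the 16 paired peaks of GATA3 and GATA2, by fold enrichment with 1 counting error (points and lines) and by scaled pileup (diamonds). The grey band runs from the first to the third quartile of all 31663 pairs, -0.27 to 0.17, and rows give the gene, the distance from its start in kb and the class of the site.

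Over all pairs of a locus, the median log2 ratio of fold enrichment was -0.24 at GATA2, where 8 of 10 pairs were lower in sgSNHG1, and -0.04 at GATA3, where 3 of 6 were. Over all 31663 pairs it was -0.05, with 55.6% lower. With scaled pileups the medians were -0.15 at GATA2 and -0.04 at GATA3, against -0.01 over all pairs. A log2 ratio of more than 2 counting errors was found in 2.59% of all pairs and in 0 of the 16 member pairs. Peaks were narrower in sgSNHG1 in 12 of 16 pairs, and in 79.8% of all pairs, so that the width of the member peaks moved as it did elsewhere. The covered length went from 6032 bp in control to 3103 bp in sgSNHG1 at GATA2 and from 2197 to 2344 bp at GATA3.

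The surroundings of the loci were examined for a shift of the whole region. Within 5 Mb of GATA2, 212 pairs had a median log2 ratio of -0.10 by fold enrichment and -0.06 by scaled pileup, and 328 control and 274 sgSNHG1 peaks were listed. Within 5 Mb of GATA3, 74 pairs had medians of -0.08 and -0.03, with 125 control and 108 sgSNHG1 peaks. The local background of these pairs had a median log2 ratio of -0.02 at GATA2 and -0.03 at GATA3. The higher peak number at GATA3 thus stood in a region with fewer sgSNHG1 than control peaks. The same held for the whole lists, with 47610 control and 42682 sgSNHG1 peaks.

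**Figure D4:**
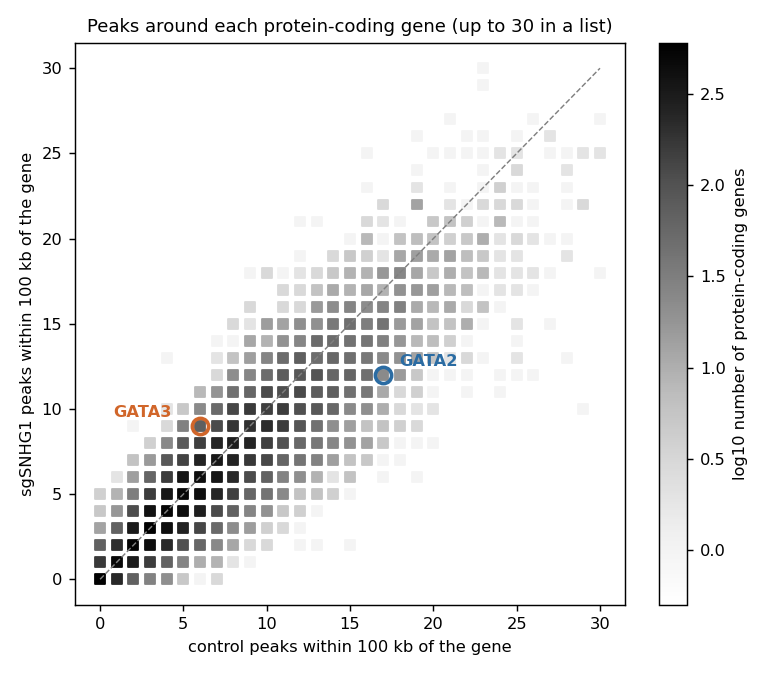
Number of control peaks (horizontal) and sgSNHG1 peaks (vertical) within 100 kb of each protein-coding gene, with darker squares for more genes on a log10 scale, the diagonal dashed and genes above 30 in a list not drawn. GATA2 (17 and 12) lies below the diagonal and GATA3 (6 and 9) above it, both within the spread of other genes.

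Compared with all protein-coding genes, which had a median of 6 peaks within 100 kb in each list, GATA2 lay in a peak-rich region. The count of GATA3 was at the median in control and at the third quartile, 9, in sgSNHG1. Its counts were reached by 55.0% of genes in control and by 26.2% in sgSNHG1. In control, 4.46% of genes had 17 or more peaks, and in sgSNHG1 11.8% had 12 or more. Among 19383 genes with a peak in either list, 5.00% had at least 3 more sgSNHG1 than control peaks, as GATA3 did, and 4.93% had at least 5 fewer, as GATA2 did. By the numbers of peaks, the share of control peaks overlapped and the median log2 ratio, the loci most like GATA2 among 18548 genes were those of DTNB, GAP43 and NEURL1B, at standardised distances of 0.201, 0.211 and 0.212. GAP43, a growth-cone protein of neurons, had 18 control and 13 sgSNHG1 peaks. The loci most like GATA3 were ENSG00000283761, at a distance of 0.0136, and the overlapping ZNF547 and ENSG00000268133, at 0.0843, each with 6 control and 9 sgSNHG1 peaks.

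GATA motifs were found at few of these peaks, and the counts are given beside the shares of the whole lists without a test. Within 100 bp of the summit, a motif was found at 5 of 23 control members, against 25.5% of all control peaks, and at 4 of 21 sgSNHG1 members, against 25.6%. Among distal peaks it was found at 4 of 16 control and 3 of 12 sgSNHG1 members, against 35.6% and 36.4%. The median GC content of the distal members was 59.0% in control and 59.5% in sgSNHG1, above the 49.3% and 48.8% of all distal peaks, and the motif itself is AT-rich. Within 50 bp of the summit, a motif was found at 5 of 23 control and 3 of 21 sgSNHG1 members, against 14.9% and 15.0% of all peaks, and at 4 of 16 and 3 of 12 distal members, against 21.2% and 21.7%. Over whole peaks, the GATA2 members held 12 motifs in control and 8 in sgSNHG1, or 1.99 and 2.58 per kb, against 1.49 in the whole GATA2 window. The GATA3 members held 3 motifs in control and 3 in sgSNHG1, or 1.37 and 1.28 per kb, against 2.15. With so few motifs, no difference between the genes or from the windows was read from these densities. No GATA3 promoter peak had a motif within 100 bp of its summit. Within 100 bp, the E-box CAGCTG was found at 6 of 23 control and 7 of 21 sgSNHG1 members, against 19.0% and 20.8% of all peaks. The E-box CATCTG was found at 4 of 23 and 3 of 21 members in the same window, against 22.9% and 23.6%.

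An E-box and a GATA motif set closely together (CATCTG, 6 to 10 bases, AGATAA) is the layout bound by complexes of GATA and TAL1 in blood cells, and a site of this kind in a GATA2 intron is known as a haematopoietic and endothelial enhancer. The search found 1 such site in each window. Capitals mark the E-box and the GATA motif.
GATA2 intron, chr3:128483311-128483330, minus strand: CATCTGcagcctgaAGATAA
GATA3 downstream, chr10:8146161-8146179, minus strand: CATCTGgtagatcAGATAA

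The GATA2 site overlapped no peak, and the nearest peaks were 4495 bp away in control and 1477 bp away in sgSNHG1. The GATA3 site also overlapped none, with peaks 28728 and 28764 bp away. In these lists, the intronic site of GATA2 was thus below the calling threshold in both groups.

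Other GATA genes and the cofactors of GATA factors gave the background for the pair. Of 18 genes fixed as GATA family and partners, 15 had a promoter peak in control and 13 in sgSNHG1, or 83.3% and 72.2%, against 69.7% and 65.7% of all protein-coding genes. The 13 with both, GATA2 and GATA3 among them, had a median log2 ratio of -0.02 for the strongest promoter peak, with 8 lower and 5 higher, against -0.07 over all genes. None of the 13 passed 0.5 in size. GATA1, GATA5 and TAL1, which drive blood or endodermal programmes, had no promoter peak in either list, and GATA6 and LYL1 had one in control alone. GATA4 had the largest positive value after GATA3, 0.37 (counting SE 0.43), from fold enrichments of 3.86 (control) and 4.99 (sgSNHG1). ZFPM2, a FOG cofactor, had a strong promoter peak, with fold enrichments of 11.8 (control) and 10.3 (sgSNHG1).

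HAND2, ISL1, TBX2 and MYCN, transcription factor genes of the core regulatory circuitry, each had a promoter peak in both lists and a lower value in sgSNHG1. The log2 ratio of the strongest promoter peak was -0.30 at ISL1 (counting SE 0.31), -0.18 at TBX2 (counting SE 0.35), -0.14 at MYCN and -0.01 at HAND2 (counting SE 0.36). These values depended on the scale, most of all at HAND2. With scaled pileups they were -0.53 at ISL1, -0.21 at TBX2 and -0.55 at HAND2, and MYCN had no scaled value. The number of peaks within 100 kb was lower in sgSNHG1 at HAND2, ISL1 and TBX2, as at GATA2, with 15 control and 5 sgSNHG1 peaks at HAND2. MYCN, in the amplified segment of this line, had 36 control and 49 sgSNHG1 peaks.

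The labelled cell type was checked by promoter peaks of marker genes. Of 10 neuroblastoma markers, 9 had a promoter peak in both lists, the exception being TH, the tyrosine hydroxylase gene. Among all protein-coding genes, 12710 of 19962 had a promoter peak in both lists. HAND2, ISL1, TBX2 and MYCN, described above, are among these 9 markers. Of 8 haematopoietic markers only CD34 had one, in both lists, and of 4 endothelial markers CDH5 had one in both lists and KDR in control alone. All 9 neuroblastoma markers with a value were lower in sgSNHG1, with a median of -0.18, as were CD34 at -0.16 and CDH5 at -0.53. Over all protein-coding genes 60.4% were lower, with a median of -0.07. The part of these markers in the values of GATA2 and GATA3 was not tested. The peak nearest the SNHG1 start, whose position does not show whether the gene was deleted, had fold enrichments of 5.71 (control) and 6.04 (sgSNHG1). The median pileup at a summit was 24 fragments in control and 20 in sgSNHG1 over all peaks, and 36 and 28 over the members, so that a single member ratio had a counting error of 0.28 to 0.48 log2 units.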

How the data were processed

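ATAC-seq was performed on 2 control and 2 sgSNHG1 samples of SK-N-BE(2)C cells. Per the study's methods and processing notes, the authors trimmed adapters with cutadapt, aligned to GRCh38 with BWA, filtered reads with Picard and GATK, shifted cut sites with deepTools, merged the replicates of a group and called peaks with MACS2. Versions and the calling threshold were not given in the sources used here. A peak present in 1 replicate only cannot be recognised after this step.

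The score deposited by the authors is a whole number made from the q-value and was not used. Fold enrichment, a ratio also deposited by the authors, sets the fragment pileup of a summit against its local background. As deposited, −log10 p and −log10 q (p-values and q-values) are those of the peak caller. The smallest −log10 q was 2.00 in control and 2.01 in sgSNHG1. The total depth is unknown.

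The whole-number pileup and the local background were solved from fold enrichment and −log10 p, within 0.001, for 47576 control and 42653 sgSNHG1 peaks, after the procedure was tested on simulated data. The counting SE of a log2 ratio treats both pileups as Poisson counts. It covers counting error only, and fragments amplified by PCR are not independent molecules. For a scaled pileup, the pileup was divided by the smallest local background of its list, 2.20 in control and 1.72 in sgSNHG1. The limit of a list at a site is the pileup at which its smallest −log10 p would be reached with the same relative background, and is an estimate. Peaks were shared at an overlap of at least 1 bp, and mutual best overlaps were paired. Starts within 500 bp were described together. GENCODE version 44 gave the genes, RefSeq (GRCh38.p14) additional starts and GRCh38 the sequences. Both genes matched the RefSeq table. Python 3.11.15, pandas 2.3.3 and scipy 1.17.1 were used.

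Named peaks were all those within 3 kb of a GATA2 or GATA3 start, the 3 highest by fold enrichment per locus and list, the 2 lowest and 2 highest pairs per locus, the 2 most significant per list without a partner, and the 3 most alike loci farther than 1 Mb away. The members, gene lists and motifs were chosen with earlier results of these data known. The gene lists were written from general knowledge and the study. Alternatives were thresholds on −log10 q, other distances, other overlaps, other starts and the scaled pileup. Some items are not reported here.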

Additional observations from a re-analysis of the deposited data

How the results depend on the processing

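The median log2 ratio of the GATA2 pairs was below 0 under every setting tried, from -0.24 to -0.05. That of the GATA3 pairs turned from -0.04 to between 0.06 and 0.08 with either −log10 q threshold, within 250 kb, with 50% overlap and with summits at most 150 bp apart. Of 92 recomputed values over 13 settings, 64 stayed within the spread or within 1.5 times the count, and 28 moved. A −log10 q of at least 5 gave 1 control-only peak at GATA3. A −log10 q of at least 10 left 8 control and 5 sgSNHG1 peaks at GATA2, with 3 control-only and 0 sgSNHG1-only, and 4 sgSNHG1 peaks with 2 control-only at GATA3, so that the larger number of sgSNHG1 peaks at GATA3 was lost. Within 50 kb, GATA2 had 8 control and 6 sgSNHG1 peaks, with 3 control-only and 1 sgSNHG1-only. Within 250 kb, it had 35 and 22 with 16 control-only, and GATA3 had 14 and 16 with 4 control-only and 6 sgSNHG1-only. Asking for 50% of both peaks to be shared gave 11 control-only and 6 sgSNHG1-only peaks at GATA2 and 1 control-only peak at GATA3. The strongest promoter peak of GATA3 turned from 0.44 to -0.27 by scaled pileup and to -0.21 with 1 kb on either side of a start. A −log10 q of at least 5 left 2 control and 2 sgSNHG1 promoter peaks at GATA2. With the start of the gene record alone, promoter peaks numbered 1 and 1 at GATA2 and 1 and 2 at GATA3 (control and sgSNHG1), and with 1 kb on either side of a start 2 and 3 at GATA3. The addition of RefSeq starts, chosen after seeing the data, kept the ratios of the strongest promoter peak at 0.44 for GATA3 and -0.47 for GATA2. Causes beyond the construction of each setting were not tested. No paired analysis was possible because the replicates were combined before peak calling, and leaving out a replicate could not be done for the same reason. Depth limits single ratios to a counting error of about 0.33.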
